A study of Mus musculus with 6 samples.

Results

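The 40 features described here are the genes of RNA polymerase I, of rRNA gene transcription and of nucleolar rRNA processing, together with the rRNA precursor Rn45s. They were chosen by symbol from a fixed list, and all 40 were found among the 24411 features of the gene count tables. RNA-seq libraries of primary microglia (PM) in 2 groups were used, 3 libraries from PM treated with GSK-J4 (10 μM, 4-h) and 3 from PM treated with GSK-J4 (10 μM) and LPS (10 ng/ml) for 4-h. GSK-J4 is an inhibitor of H3K27 demethylases, and LPS is the bacterial ligand of TLR4. Both groups carried GSK-J4, so each difference given below is between libraries with and without LPS in its presence. Rose and fell name the direction of this contrast, whatever its source. The PM were shaken off mixed glial cultures made from pooled whole brains of 3-day-old ICR mice, so a library holds the RNA of many animals and of any glia that came along. The triplicates are described as independent RNA samples, and no source says which mouse pools they came from. Untreated and LPS-only PM were not analysed here.

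RNA polymerase I transcribes the repeated rRNA genes in the nucleolus into a single long precursor, which is cut, modified and packed with ribosomal proteins into both ribosomal subunits. The polymerase is brought to the rRNA promoter by the upstream binding factor, by a complex of TATA-binding protein with the Taf1 proteins, and by Rrn3, and Myc is known to raise the output of the whole pathway. Small nucleolar RNPs guide the modification and early cuts of the precursor, and separate sets of assembly factors build the small and the large subunit. Macrophage-lineage cells are known to induce Myc when TLR4 is engaged.

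The libraries held 2597505 to 3472716 fragments assigned to genes, and levels are given as CPM, counts per library size after scaling by edgeR's TMM factors, as mean ± SD over 3 libraries unless each library is named. In CPM, 3 counts corresponded to 0.673 to 1.24, a floor that covers counting error only. The second principal component, with 16.3% of the variance, set replicate 3 of both groups (15.2 and 28.3) apart from the other libraries (-20.4 to -2.86). Of the 12 microglial markers examined, all were detected, and their summed level was 4018 to 4204 CPM under GSK-J4 and 3337 to 3438 CPM under LPS + GSK-J4.

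Rn45s, the precursor that gives rise to the mature rRNAs of both subunits, was the most abundant feature in each library. In replicates 1, 2 and 3, its share of the fragments on genes was 22.2, 22.3 and 32.4% with GSK-J4 and 48.1, 45.8 and 47.5% with LPS + GSK-J4. All LPS + GSK-J4 libraries therefore lay above all GSK-J4 libraries, and GSK-J4 replicate 3 lay between its own group and the other. The counting error is small beside these differences, since the 95% Wilson interval of a library's share was at most 0.114 percentage points wide. The group means differed by 21.5 percentage points, and a 2-sided exact permutation test gave p = 0.1, which 3 libraries against 3 cannot undercut. Per fragment on genes other than Rn45s, Mir6236 and Lars2, the level was 0.398 ± 0.142 fragments of Rn45s under GSK-J4 and 1.03 ± 0.0315 under LPS + GSK-J4, a ratio of 2.59.

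In the model fitted to all genes, Rn45s was higher under LPS + GSK-J4 by a log2 fold change of 1.40 (standard error, SE, 0.19, adjusted p = 5.85e-05, edgeR's quasi-likelihood test with Benjamini-Hochberg adjustment). Without LPS + GSK-J4 replicate 3 the adjusted p was 0.0798 at a log2 fold change of 1.39, and without GSK-J4 replicate 3 the log2 fold change was 1.74 (adjusted p = 3.31e-10). The mature rRNAs lie inside Rn45s, so the count does not separate unprocessed precursor from mature rRNA. The RNA had been depleted of rRNA before the libraries were made, and the rRNA left by that step and the rRNA content of the cells cannot be told apart here. Mir6236, which with Lars2 was set apart from other genes above, was at 3.62, 3.57 and 4.95% of the fragments on genes under GSK-J4 and 3.89, 4.91 and 2.57% under LPS + GSK-J4, and its log2 fold change of 0.43 did not pass the test (adjusted p = 0.316).

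**Figure D1:**
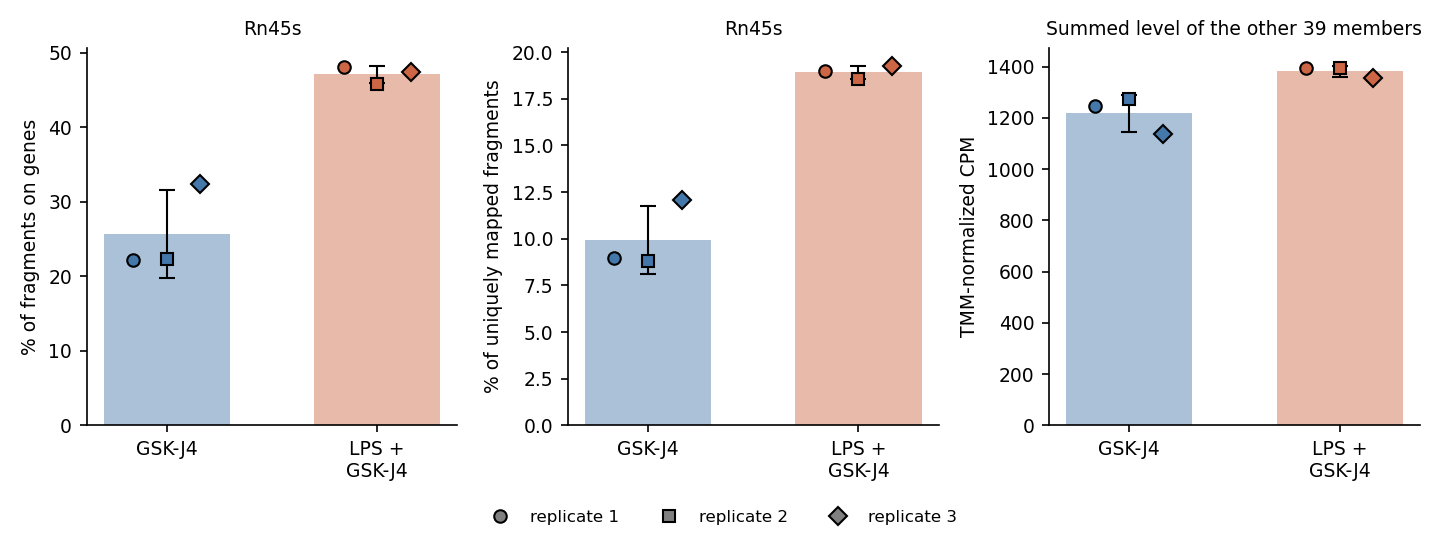
Share of Rn45s among fragments on genes (left, %), among uniquely mapped fragments (middle, %), and the summed level of the other 39 members (right, TMM-normalized CPM), with bars for the group mean, error bars for the SD over 3 libraries and a symbol for each library. Rn45s was at 45.8 to 48.1% of fragments on genes under LPS + GSK-J4 and at 22.2 to 32.4% under GSK-J4, while the summed level of the other members was at 1357 to 1395 CPM and 1137 to 1272 CPM.

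The genes that make and process rRNA did not all move in 1 direction, and most did not pass the test. Of the 40 members, 37 passed the filter on low counts, 11 of them rose under LPS + GSK-J4 (adjusted p no higher than 0.05) and 2 fell. The members that rose were Myc, Bop1, Rrs1, Nop58, Ddx21, Nop56, Polr1e, Mybbp1a, Polr1a, Rrp9 and Rn45s, and those that fell were Gnl3 and Ttf1. Among all 10133 genes tested, 13.7% rose and 9.91% fell by the same rule (23.6% in either direction), against 29.7% and 5.41% of the members tested. Groups did not overlap for 14 members that were higher and 3 that were lower under LPS + GSK-J4, which is the case in these directions for 19.8% and 18.4% of all genes tested. The median log2 fold change of the members was 0.34, and that of all genes was 0.00. Summed over the 39 members other than Rn45s, the level was 1246, 1272 and 1137 CPM under GSK-J4 and 1395, 1394 and 1357 CPM under LPS + GSK-J4.

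Several calls depended on single libraries, and size did not separate them. Polr1e, at a log2 fold change of 1.21, lost its call without some single libraries, while Ddx21, at 0.64, kept its call in each such fit. Without GSK-J4 replicate 1, GSK-J4 replicate 2 or LPS + GSK-J4 replicate 3, 7 members rose in place of 11, and without both libraries numbered 3, 10 rose and 2 fell. Without GSK-J4 replicate 2, GSK-J4 replicate 3 or LPS + GSK-J4 replicate 1, 1 member fell in place of 2. Scaled to total counts alone, with no correction for the larger share of Rn45s under LPS + GSK-J4, the median of all genes moved by -0.57. That of the members became -0.23, with 4 members rising (Myc, Bop1, Rrs1 and Rn45s) and 11 falling. Of all 10133 genes tested, 573 rose and 5019 fell in that fit. Each count given below with total counts alone is to be read beside these. Relative to all genes, the members' median was 0.34 with TMM and 0.33 with total counts. A change of scaling shifts all genes by nearly the same amount, so these values had to be close. Of the members called, Myc, Bop1, Rrs1 and Gnl3 kept their call in all 15 alternative fits. By the study's thresholds (log2 fold change of 1.5 or more in size and adjusted p no higher than 0.01), which 3.76% of all genes met, only Myc among the 37 members was called. The count was 3 without GSK-J4 replicate 3, 2 without LPS + GSK-J4 replicate 2, and 0 without GSK-J4 replicate 2 or LPS + GSK-J4 replicate 3.

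Transcripts of other cell types moved with the same contrast. Of 7 astrocyte markers tested, 3 were higher and 0 were lower, with a summed level of 53.9 to 59.4 CPM under GSK-J4 and 131 to 159 CPM under LPS + GSK-J4 over the 8 markers listed. Gfap went from 16.8 ± 2.34 to 54.4 ± 11.8 CPM (log2 fold change 1.70, adjusted p = 9.28e-06). Of 6 oligodendrocyte lineage markers tested, 4 were higher (3 with total counts alone), from 128 to 156 CPM summed to 241 to 272 CPM. Both neuronal markers tested were higher, the 6 listed summing to 12.03 to 12.35 CPM and 28.1 to 33.2 CPM. Of 6 fibroblast markers, 0 were called by edgeR or DESeq2 and 1 had an unadjusted p below 0.05 (80.1 to 281 CPM summed against 138 to 427 CPM), and the 1 endothelial marker tested, Cdh5, was higher (13.9 to 18.2 CPM over the 5 listed against 22.2 to 57.0 CPM), while Cldn5, which defines that type in brain, had no count in any library. Of the 12 microglial markers, 3 were lower, among them Cx3cr1 (362 ± 4.03 to 260.5 ± 12.2 CPM, log2 fold change -0.48, adjusted p = 0.00354), and 0 were higher. Proliferation genes also differed, with 3 of 14 higher and 0 lower (2 and 4 with total counts alone), and Mki67 went from 14.1 ± 3.97 to 46.9 ± 2.98 CPM (log2 fold change 1.76, adjusted p = 8.02e-06). The part of these cells, and of dividing cells, in the changes of the members was not tested. In bulk libraries, fewer cells of a type and less RNA per cell cannot be told apart.

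**Figure D2:**
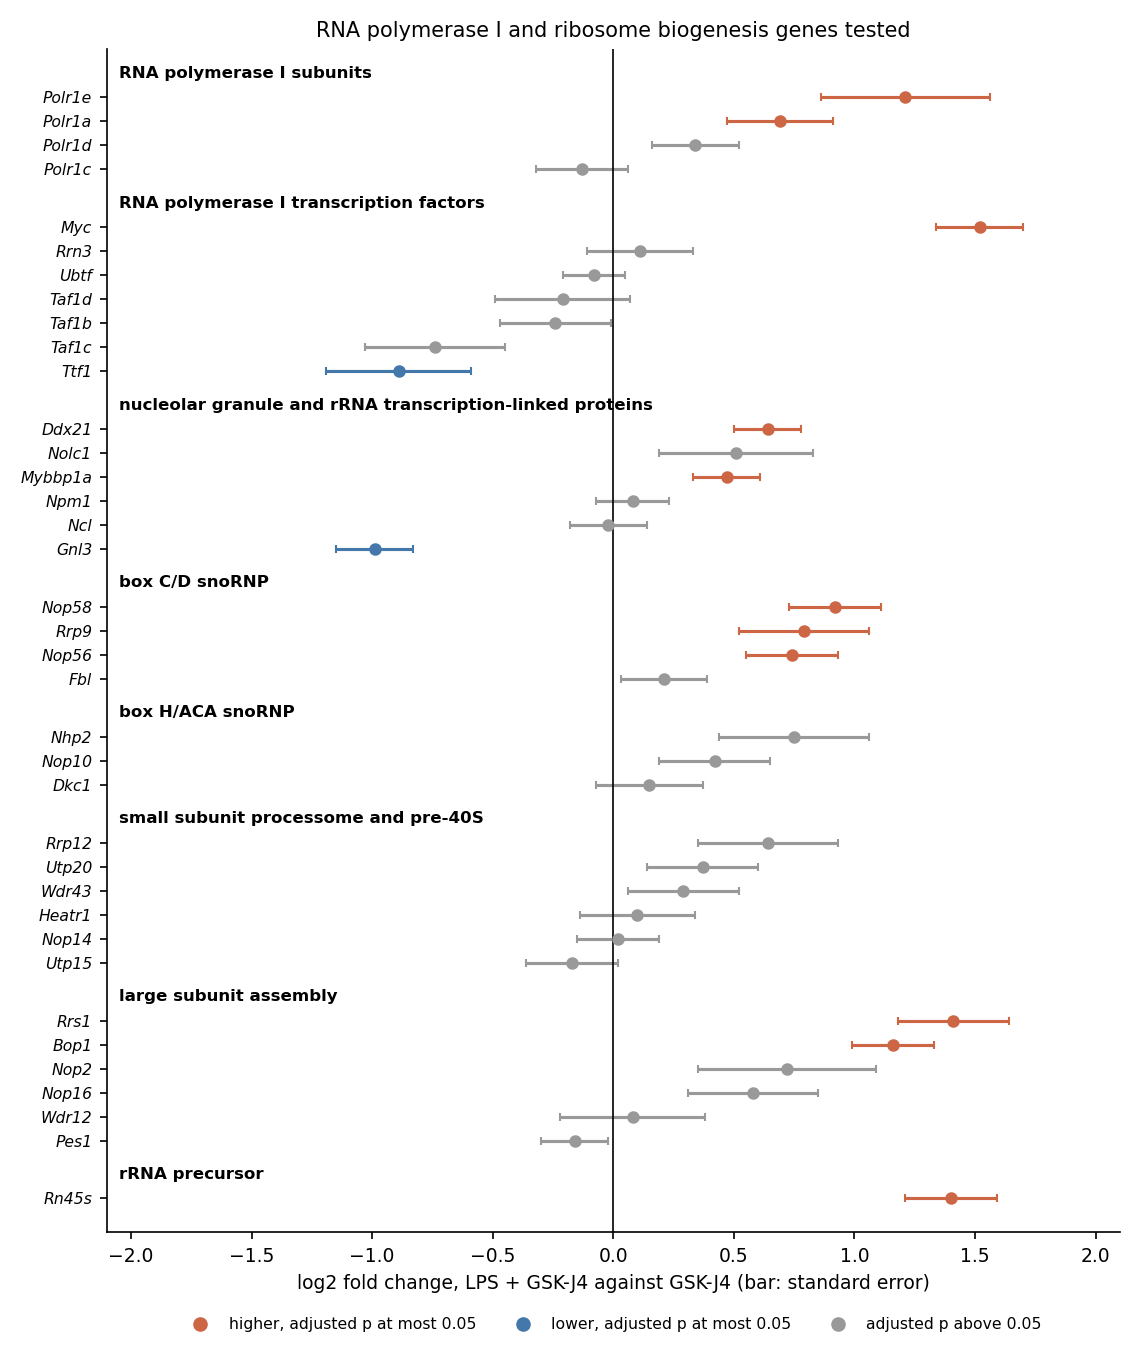
Log2 fold change of LPS + GSK-J4 against GSK-J4 (x axis, bars for the standard error) for the 37 members tested, grouped by role and coloured by the test. Box C/D proteins and large subunit factors lie mostly to the right, from 0.21 to 0.92 and from -0.16 to 1.41, and transcription factors of RNA polymerase I other than Myc lie between -0.89 and 0.11. With total counts alone the values are lower, as the median of all genes moved by -0.57.

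Among the subunits of RNA polymerase I, 2 of the 4 tested rose and 0 fell, while with total counts alone 0 rose and 1, Polr1c, fell. Polr1a, the largest and catalytic subunit (mm10 chromosome 6, 71909053 to 71984935), was at 14.4, 10.5 and 14.7 CPM under GSK-J4 and at 23.8, 16.4 and 23.1 CPM under LPS + GSK-J4. Its groups did not overlap, and it rose by a log2 fold change of 0.69 (SE 0.22, adjusted p = 0.0344). Polr1e, a subunit that takes part in initiation and elongation (chromosome 4, 45018583 to 45036565), was at 2.60, 2.92 and 5.13 CPM under GSK-J4, from 11 to 14 counts, and at 6.24, 7.63 and 9.91 CPM under LPS + GSK-J4. The increase was a log2 fold change of 1.21 (SE 0.35, adjusted p = 0.0195), again without overlap. Both calls were lost without GSK-J4 replicate 1 (adjusted p = 0.0602 for Polr1a and 0.0866 for Polr1e), without GSK-J4 replicate 2 (0.182 and 0.0832), without LPS + GSK-J4 replicate 3 (0.0571 and 0.0563), with total counts alone (0.669 and 0.121), and DESeq2 called neither (0.145 and 0.105). The call was also lost for Polr1a without LPS + GSK-J4 replicate 1 (0.114) and for Polr1e without LPS + GSK-J4 replicate 2 (0.0547). Polr1d and Polr1c, which RNA polymerase III shares, had log2 fold changes of 0.34 (adjusted p = 0.203) and -0.13 (adjusted p = 0.679). Polr1b, the second-largest subunit, had 6 to 13 counts per library and did not pass the filter.

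Of the factors that act on RNA polymerase I, Myc was the only one that rose, and 1 of the 7 tested fell, or 4 with total counts alone. Myc, the transcription factor (chromosome 15, 61985391 to 61990374), was at 25.2, 22.0 and 28.6 CPM under GSK-J4 and at 59.7, 63.7 and 92.1 CPM under LPS + GSK-J4. Each LPS + GSK-J4 library exceeded each GSK-J4 library, and LPS + GSK-J4 replicate 3 was the highest. The log2 fold change was 1.52 (SE 0.18, adjusted p = 1.75e-05), or 2.86-fold. In counts as deposited, Myc had 107, 98 and 78 fragments under GSK-J4 and 153, 167 and 223 under LPS + GSK-J4. Its direction held also with total counts alone.

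Ttf1, the factor that ends RNA polymerase I transcription (chromosome 2, 29060262 to 29087656), was at 10.1, 7.86 and 9.17 CPM under GSK-J4 and at 3.90, 6.49 and 4.13 CPM under LPS + GSK-J4. It fell by a log2 fold change of -0.89 (SE 0.30, adjusted p = 0.0440), from 10 to 17 counts per LPS + GSK-J4 library. The call was lost without any 1 library except LPS + GSK-J4 replicate 2, at adjusted p values of 0.145, 0.0622 and 0.0826 without GSK-J4 replicates 1, 2 and 3 and of 0.134 and 0.0953 without LPS + GSK-J4 replicates 1 and 3. It was also lost without both libraries numbered 3 (0.118) and in DESeq2 (0.151). Taf1c, a subunit of the promoter selectivity complex, had the next lowest value, 15.6 ± 4.00 CPM under GSK-J4 and 9.26 ± 3.28 CPM under LPS + GSK-J4 (log2 fold change -0.74, adjusted p = 0.0758), and passed the test without GSK-J4 replicate 1 (0.0340), without LPS + GSK-J4 replicate 3 (0.0157), without both libraries numbered 3 (0.0441), without the filter on low counts (0.0211) and with total counts alone (0.000442). Ubtf, which bends and opens the rRNA gene, was at 72.6 ± 2.59 and 68.7 ± 7.80 CPM (log2 fold change -0.08, adjusted p = 0.718). Rrn3, which links the polymerase to the promoter, had a log2 fold change of 0.11 (adjusted p = 0.768). Taf1b and Taf1d had log2 fold changes of -0.24 and -0.21, and neither passed the test. Taf1d was lowest in replicate 3 of both groups, at 20.9 CPM under GSK-J4 and 16.5 CPM under LPS + GSK-J4 against 36.3 to 42.6 CPM in the other libraries, so its replicates differed more than its groups. Taf1a had 4 to 13 counts per library and was not tested.

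The nucleolar proteins linked to rRNA transcription and granule structure divided, with 2 that rose, 1 that fell and 3 that did not pass the test, while with total counts alone 0 rose and 3 fell. Gnl3, the nucleolar GTPase nucleostemin (chromosome 14, 31012433 to 31019152), was at 155, 173 and 121 CPM under GSK-J4 and at 82.0, 83.9 and 61.1 CPM under LPS + GSK-J4. Its groups did not overlap, with replicate 3 the lowest of each, and it fell by a log2 fold change of -0.99 (SE 0.16, adjusted p = 0.000249), to 0.504 of its level. Gnl3 shares exon positions on its own strand with small RNA genes and on the other strand with Pbrm1, and fragments that fell on more than 1 gene of a strand are not in the count. The same limit holds for Nop56, Nop58, Ncl and Taf1d, which share exon positions with other genes of their own strand.

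Ddx21, an RNA helicase that couples RNA polymerase I transcription with rRNA processing (chromosome 10, 62580251 to 62602281), was at 40.1, 40.9 and 44.4 CPM under GSK-J4 and at 69.5, 58.8 and 67.3 CPM under LPS + GSK-J4. It rose by a log2 fold change of 0.64 (SE 0.14, adjusted p = 0.00326) with groups that did not overlap, and with total counts alone the call was lost (0.08, adjusted p = 0.702). Mybbp1a, a nucleolar Myb-binding protein (chromosome 11, 72441355 to 72451768), was at 119.9, 110.4 and 129.8 CPM and at 139, 164 and 196 CPM. It rose by a log2 fold change of 0.47 (SE 0.14, adjusted p = 0.0209), with adjusted p values of 0.0648, 0.112 and 0.0670 without GSK-J4 replicate 1, GSK-J4 replicate 2 and LPS + GSK-J4 replicate 2, and with total counts alone its sign turned (-0.09). Npm1, the granule protein nucleophosmin, was the most abundant member besides Rn45s in CPM, at 257 ± 40.1 and 272 ± 56.8 CPM (log2 fold change 0.08, adjusted p = 0.752). Npm1 has processed copies in the genome, so its count is uncertain. Ncl, nucleolin, was at 56.5 ± 7.34 and 56.0 ± 10.6 CPM (log2 fold change -0.02, adjusted p = 0.949). Nolc1, a chaperone of small nucleolar RNPs, had a log2 fold change of 0.51 (adjusted p = 0.284).

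Box C/D RNPs place methyl groups on rRNA and, with the U3 RNA, make its early cuts. Of their 4 proteins, 3 rose with TMM scaling and none of the 3 passed with total counts alone. Nop58 (chromosome 1, 59684971 to 59719044) was at 24.5, 28.5 and 20.5 CPM under GSK-J4 and at 46.8, 56.5 and 37.2 CPM under LPS + GSK-J4. It rose by a log2 fold change of 0.92 (SE 0.19, adjusted p = 0.00190), and the lowest LPS + GSK-J4 library was above the highest GSK-J4 library. Nop56, its partner in the RNP core (chromosome 2, 130274430 to 130279313), was at 19.3, 15.3 and 18.3 CPM and at 33.6, 27.9 and 26.4 CPM. The groups did not overlap either, with a log2 fold change of 0.74 (SE 0.19, adjusted p = 0.00957, and 0.0711 without GSK-J4 replicate 2). Rrp9, a protein of the U3 RNP (chromosome 9, 106475963 to 106485424), was at 7.79, 15.04 and 13.9 CPM and at 14.1, 24.4 and 24.8 CPM. Here the groups overlapped, and the log2 fold change of 0.79 (SE 0.27) was just past the threshold at an adjusted p of 0.0465. That call was lost without GSK-J4 replicate 1 (0.209), GSK-J4 replicate 3 (0.0588), LPS + GSK-J4 replicate 2 (0.187) or LPS + GSK-J4 replicate 3 (0.0919), without both libraries numbered 3 (0.0864) and in DESeq2 (0.132). Fbl, fibrillarin, the methyltransferase of the same RNPs, was at 25.9 ± 0.993 and 30.0 ± 4.75 CPM, a log2 fold change of 0.21 that did not pass the test (adjusted p = 0.451).

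Box H/ACA RNPs turn uridines of rRNA into pseudouridine, and 0 of their 3 proteins tested passed the test in edgeR or DESeq2, 1 of them, Nhp2, with an unadjusted p below 0.05. Nhp2 passed in edgeR when only genes with at least 10 counts in every library were tested (0.76, adjusted p = 0.0462), and with total counts alone the median of the 3 turned from 0.42 to -0.15. Dkc1, dyskerin, the enzyme, was at 15.7 ± 1.91 and 17.5 ± 4.14 CPM (log2 fold change 0.15, adjusted p = 0.675). The small proteins Nhp2 and Nop10 had log2 fold changes of 0.75 (adjusted p = 0.0975) and 0.42 (adjusted p = 0.216). Gar1 had 0 to 4 counts per library, around the floor of 3 counts, and its level could not be compared. Of 22 small nucleolar RNAs expected in introns of the members, 10 had a feature and none passed the filter. Snord19, in Gnl3, had the highest mean level, with 9, 9 and 2 counts under GSK-J4 and 1, 2 and 1 under LPS + GSK-J4.

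In the set that builds the small subunit, 0 of 6 members passed the test in either direction in edgeR or DESeq2, and 1, Rrp12, had an unadjusted p below 0.05. With total counts alone, 2 of them fell, Utp15 (-0.74, adjusted p = 0.00788) and Nop14 (-0.56, adjusted p = 0.0213). Their log2 fold changes ran from -0.17 for Utp15 to 0.64 for Rrp12, a factor in the export of the precursor particle, whose adjusted p was 0.125 and, without LPS + GSK-J4 replicate 1, 0.0385. Heatr1, Utp15 and Wdr43, which also act in rRNA transcription, had values of 0.10, -0.17 and 0.29, and Utp20 and Nop14 of 0.37 and 0.02. The summed level of the 6 genes was 106 to 118 CPM under GSK-J4 and 119 to 123 CPM under LPS + GSK-J4.

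In the large subunit set, 2 of 6 members rose, with TMM and with total counts alone, where 1, Pes1, also fell. Rrs1, an assembly factor of the large subunit (chromosome 1, 9545408 to 9547455), was at 8.02, 8.75 and 12.5 CPM under GSK-J4 and at 25.8, 21.4 and 28.9 CPM under LPS + GSK-J4. All 3 LPS + GSK-J4 libraries were above all GSK-J4 libraries, with a log2 fold change of 1.41 (SE 0.23, adjusted p = 0.000250). Bop1 (chromosome 15, 76452989 to 76477277) was at 20.1, 18.4 and 22.0 CPM and at 42.2, 42.4 and 49.97 CPM. Its groups did not overlap, and the log2 fold change was 1.16 (SE 0.17, adjusted p = 0.000101). Bop1 acts in a complex with Pes1 and Wdr12, and these had log2 fold changes of -0.16 (adjusted p = 0.436) and 0.08 (adjusted p = 0.888). Pes1 was at 68.4 ± 2.44 and 61.2 ± 6.39 CPM, and the difference between its change and that of Bop1 was not tested. Nop2, an rRNA methyltransferase, and Nop16 had log2 fold changes of 0.72 (adjusted p = 0.185) and 0.58 (adjusted p = 0.131).

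**Figure D3:**
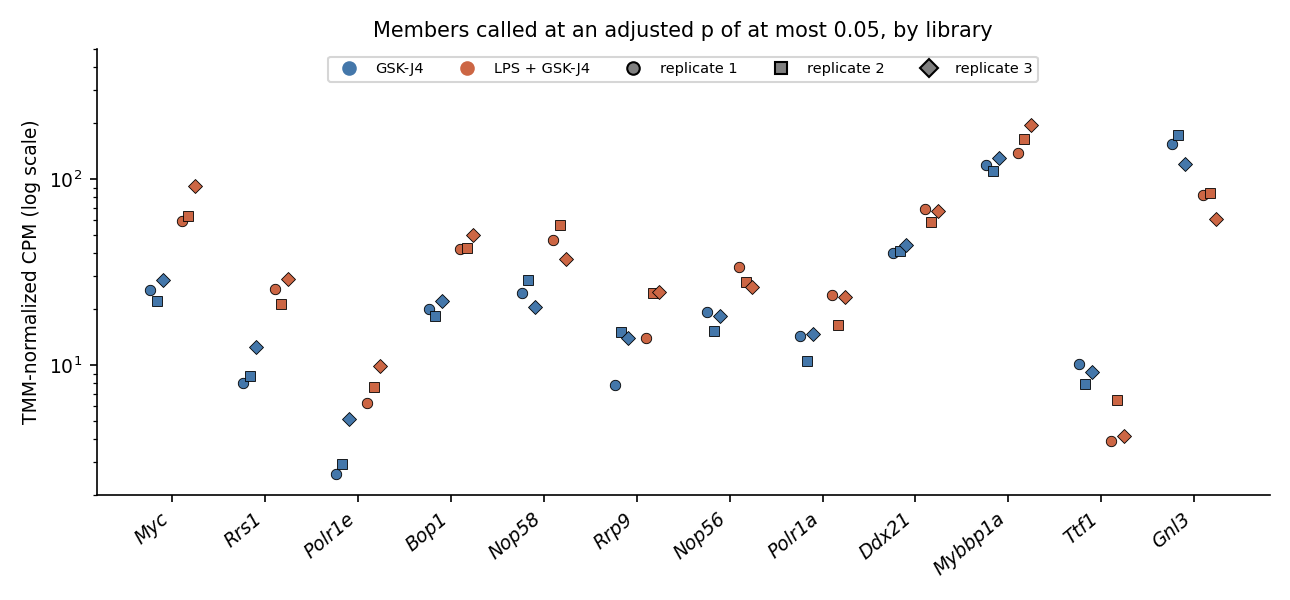
TMM-normalized CPM (log axis) of the 12 called members other than Rn45s, by library, with blue for GSK-J4, orange for LPS + GSK-J4 and a symbol for each replicate number. Myc is at 22.0 to 28.6 CPM under GSK-J4 and 59.7 to 92.1 CPM under LPS + GSK-J4, Gnl3 is the most abundant gene to fall, and the groups of Rrp9 overlap.

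Levels between genes were compared per kb of annotated exon, taken as the union over all annotated transcripts of a gene. That union was 11955 bases for Wdr12 and 6101 for Gnl3, so the order below depends on the annotation as well as on the counts. In GSK-J4, Npm1 was the highest of the 39 genes at 96.4 CPM per kb, followed by Gnl3 (24.5), Pes1 (22.6) and Mybbp1a (20.7). In LPS + GSK-J4 the order after Npm1 (102 CPM per kb) was Mybbp1a (28.6), Myc (26.4) and Pes1 (20.2), and Gnl3 was at 12.4. The distance from Gnl3 to Mybbp1a in the first group was within the SD of Gnl3, and that from Mybbp1a to Myc in the second within the SD of Myc, so these neighbours are not ordered beyond their spread. The subunits Polr1a and Polr1e were at 1.11 and 0.911 CPM per kb under GSK-J4, near Wdr12 (0.704), Nop2 (0.959) and Utp20 (1.23) at the low end of the members tested.

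The promoters of the members were read for words bound by factors of the pathway, since Myc was among the members that rose. Promoters of 33 of the 40 members were found in RefSeq's table for GRCm38.p6, each with 250 bases before and 50 after the start, and all transcripts' starts of a gene were searched on both strands. The E-box CACGTG, the word of Myc with Max, was in 6 of the 33 (18.2%) and in 8.09% of 27025 genes. These were Rrn3, Mybbp1a, Wdr43, Utp20, Pes1 and Nop2, of which only Mybbp1a was called. Of the members called, 9 were among the 33, while Myc, Bop1, Rrs1 and Rn45s had no promoter there and were not searched. The ETS word CCGGAAG was in 12 of the 33 (36.4%) and in 9.93% of all genes, and the called members with it were Polr1e and Ttf1, which went in opposite directions. An NF-kB word and a palindrome around CGCG, each of 10 letters, were in 0 of the 33, and in 0.466% and 0.525% of all genes. The table holds promoters of all kinds of genes, so these shares are descriptions. The 4 promoters below are those of the called members with a word (Mybbp1a, Polr1e and Ttf1) and of Rrn3, which holds both words more than once and did not pass the test. They are in lower case, 5′ to 3′, and capitals mark the E-box and the ETS word on either strand.
Mybbp1a (chr11:72441077-72441376, + strand): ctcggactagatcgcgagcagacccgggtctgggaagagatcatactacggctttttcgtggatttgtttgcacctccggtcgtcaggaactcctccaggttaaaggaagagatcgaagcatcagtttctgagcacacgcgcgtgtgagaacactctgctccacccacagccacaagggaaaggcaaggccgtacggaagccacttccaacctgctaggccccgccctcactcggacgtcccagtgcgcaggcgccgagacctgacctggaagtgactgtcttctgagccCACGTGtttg
Polr1e (chr4:45018359-45018658, + strand): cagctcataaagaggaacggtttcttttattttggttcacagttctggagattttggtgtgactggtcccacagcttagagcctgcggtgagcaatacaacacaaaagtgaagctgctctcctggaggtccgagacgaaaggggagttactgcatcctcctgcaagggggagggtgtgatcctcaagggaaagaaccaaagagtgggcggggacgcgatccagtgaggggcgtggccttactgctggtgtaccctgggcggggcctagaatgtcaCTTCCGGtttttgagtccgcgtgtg
Ttf1 (chr2:29060013-29060312, + strand): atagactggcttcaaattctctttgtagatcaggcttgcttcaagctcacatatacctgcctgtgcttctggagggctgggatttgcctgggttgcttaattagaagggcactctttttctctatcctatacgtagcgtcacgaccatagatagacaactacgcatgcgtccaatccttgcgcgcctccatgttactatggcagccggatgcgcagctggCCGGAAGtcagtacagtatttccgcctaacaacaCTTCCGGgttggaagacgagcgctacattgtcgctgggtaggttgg
Rrn3 (chr16:13780449-13780748, + strand): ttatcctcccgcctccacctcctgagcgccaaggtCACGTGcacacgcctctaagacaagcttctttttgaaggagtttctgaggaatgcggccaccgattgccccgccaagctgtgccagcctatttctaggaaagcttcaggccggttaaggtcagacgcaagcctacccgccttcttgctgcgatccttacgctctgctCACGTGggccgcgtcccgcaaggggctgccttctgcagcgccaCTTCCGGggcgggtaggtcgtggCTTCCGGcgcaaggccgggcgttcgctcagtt
Counted from 1 at the start, with negative bases before it, in Mybbp1a the E-box lies after the start, from base 41, and in Rrn3 the E-boxes begin at bases -215 and -48. The ETS words begin at base 26 in Polr1e, at -30 and 5 in Ttf1, and at -5 and 19 in Rrn3. A matching word is no evidence that a factor bound there.

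Beyond the members, 139 further ribosome biogenesis genes were listed and 134 tested. Of these, 13 rose and 0 fell, 9.70% of those tested, below the 13.7% of all genes that rose, and their median log2 fold change was 0.14. At an unadjusted p below 0.05, 27 were higher and 2 lower, beside 1958 and 1573 of all 10133 genes. DESeq2 called 5 higher and 0 lower, beside 912 and 820 of the 10133 genes. The count that rose was 5 without GSK-J4 replicate 1 and 6 without GSK-J4 replicate 2. With total counts alone 1 rose and 48 fell, beside 573 and 5019 of all 10133 genes. Among 11 other subunits and factors of RNA polymerase I, 2 rose, Polr2l, a subunit of all nuclear RNA polymerases (4.97 ± 1.45 to 10.9 ± 0.165 CPM, log2 fold change 1.18, adjusted p = 0.00686), and Ptrf, known as a release factor of RNA polymerase I and as a caveolar protein (8.38 ± 3.58 to 19.3 ± 4.40 CPM, log2 fold change 1.14, adjusted p = 0.00827). Of 48 other small subunit factors, 3 rose, among them Ltv1, an export adaptor (13.9 ± 0.928 to 31.5 ± 2.93 CPM, log2 fold change 1.17, adjusted p = 0.000198), and Tbl3 (log2 fold change 0.68, adjusted p = 0.0332). Of 53 other large subunit factors, 8 rose, among them Sbds, which acts in late maturation (30.9 ± 3.69 to 51.5 ± 3.71 CPM, log2 fold change 0.74, adjusted p = 0.00253), and Ebna1bp2 (log2 fold change 0.73, adjusted p = 0.00570). Of 7 genes for RNP assembly 0 were called, and of 15 for the exosome and trimming 0 by either tool, with 0 and 1 at an unadjusted p below 0.05, and Rmrp, the RNA of an enzyme that cuts the rRNA precursor, was at 2676 ± 614 and 3143 ± 395 CPM (log2 fold change 0.23, adjusted p = 0.269).

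RNA polymerases II and III were read beside RNA polymerase I. Of 7 subunits of RNA polymerase II, 1 rose, Polr2g (20.6 ± 5.29 to 43.6 ± 1.18 CPM, log2 fold change 1.05, adjusted p = 0.000668), with a median of 0.10 that became -0.47 with total counts alone, where 0 rose and 3 fell. Of 11 subunits of RNA polymerase III, 0 were called by either tool (1 in each direction at an unadjusted p below 0.05), 10 had a negative sign and the median was -0.23 (with total counts alone, 9 fell). The median of the 4 RNA polymerase I subunits tested was 0.51, and the difference between these small sets was not tested. Of 73 cytosolic ribosomal protein genes tested, 3 rose, among them Rpl24 (142 ± 0.732 to 190.4 ± 15.8 CPM, log2 fold change 0.42, adjusted p = 0.0151) and Rpl13, and 0 fell by either tool or at an unadjusted p below 0.05, with a median log2 fold change of 0.14, while with total counts alone 0 rose, 45 fell and the median was -0.42. In that fit 5019 of all 10133 genes fell. The summed level of the ribosomal protein genes was 15180 to 15760 CPM under GSK-J4 and 16190 to 17360 CPM under LPS + GSK-J4.

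In the network of proteins that pair or compete with Myc, 2 of 8 tested fell and 0 rose. With total counts alone all 8 fell (median -0.94), as did 5019 of all 10133 genes. Mga, a Max partner, was at 236, 222 and 198 CPM under GSK-J4 and at 130.0, 108 and 95.8 CPM under LPS + GSK-J4 (log2 fold change -0.97, adjusted p = 6.27e-05). Mnt, a repressor that pairs with Max, went from 28.4 ± 8.15 to 14.9 ± 1.76 CPM (log2 fold change -0.91, adjusted p = 0.00820). Myc and these 2 genes therefore moved in opposite directions between the same libraries. Of 11 regulators of rRNA gene chromatin, 2 fell (6 with total counts alone), Kdm2a, a demethylase (log2 fold change -0.51, adjusted p = 0.00745), and Ercc6 (log2 fold change -0.56, adjusted p = 0.0472). The DESeq2 test also called 0 higher in both lists, and 0 were higher at an unadjusted p below 0.05. Of 12 targets of p53, which is known to respond to nucleolar stress, 4 rose and 1 fell (1 and 2 with total counts alone), led by Cdkn1a (114 ± 10.4 to 231 ± 33.5 CPM, log2 fold change 1.03, adjusted p = 3.16e-05) and Eda2r, and by Trp53inp1 (log2 fold change -0.71, adjusted p = 0.00778).

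**Figure D4:**
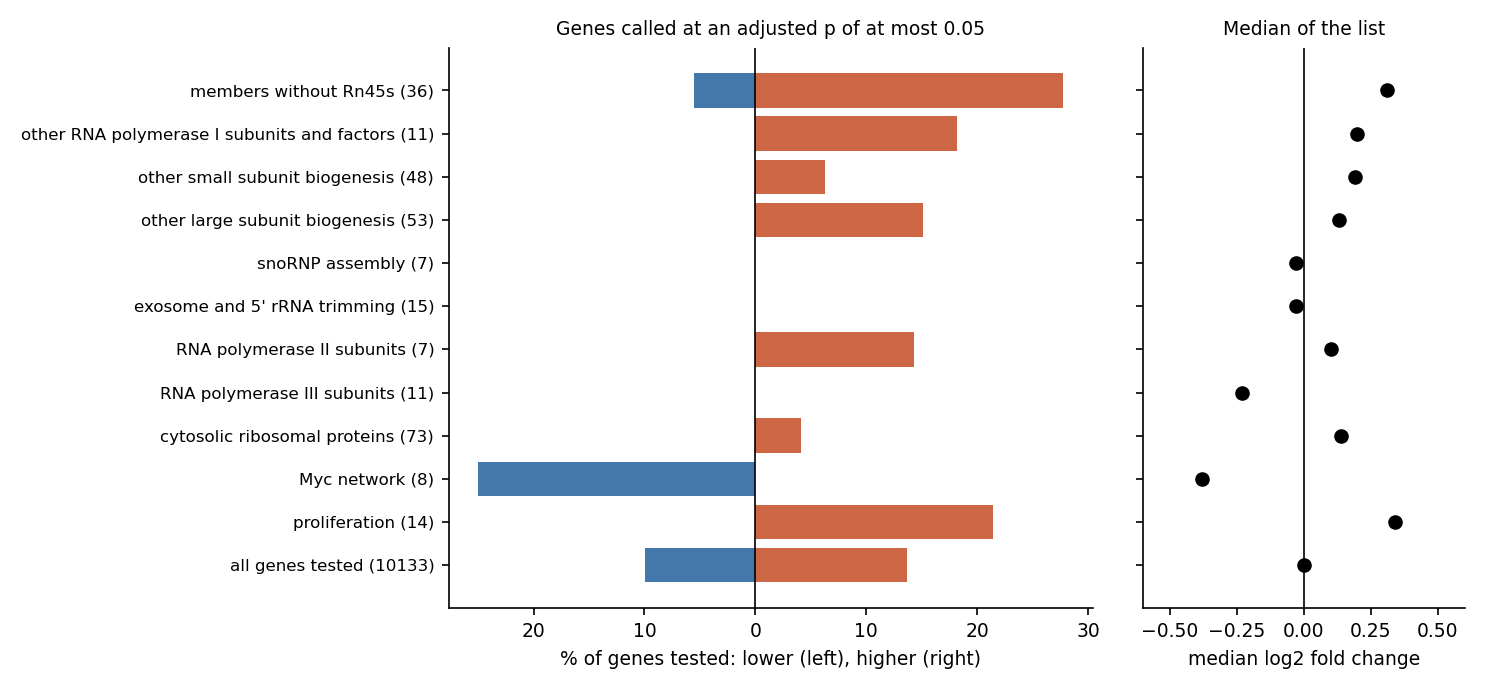
Share of tested genes that were called lower (left of 0) or higher (right of 0) with an adjusted p no higher than 0.05, and the median log2 fold change, for the members without Rn45s and for the lists set beside them, with the number of genes tested in brackets. Of the 36 members, 27.8% were higher and 5.56% lower with TMM, and of all 10133 genes 13.7% and 9.91%, while with total counts alone the medians are lower by about the shift of all genes (-0.57).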

How the data were processed

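RNA-seq counts of 6 PM libraries, 3 per group, were used. Per the labels and the study's methods, the authors depleted rRNA, made libraries with a directional kit, trimmed the reads with Trimmomatic 0.33, aligned them to mm10 with STAR 2.5.1 and deposited its raw counts of fragments per gene, without normalization. STAR counts fragments that map to 1 place and to 1 gene. The annotation used for counting is not given in the sources used here. The reverse-strand column was used.

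Counts were tested in R 4.3.3 with edgeR 4.0.16 (TMM scaling, filterByExpr at its settings of 10 for the count and 15 for the total, quasi-likelihood test with robust dispersion, LPS + GSK-J4 set against GSK-J4 in the 6 libraries without covariates). Benjamini-Hochberg adjustment covered the 10133 genes that passed the filter, and the threshold was an adjusted p of 0.05. The p values of edgeR set the group difference against the variation between these libraries, 3 per group, with dispersions moderated over all genes. They speak for these libraries only. The fit was tested on simulated data with changes set in genes drawn at random. Of 97 genes given a log2 fold change of 1 in size, 68 were called, as were 93 of 94 given 2 and 3 of 9645 given 0. Sizes between 0 and 1 were not simulated. DESeq2 1.42.0, other scalings, filters, the unstranded column, a replicate block and left-out libraries were the alternatives. Leaving out both libraries numbered 3 was added later.

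All members may be named. In full are Rn45s, Myc and the members called, and of the others at most 6 were to be detailed. Of each other list the 2 smallest adjusted p in each direction are named, or the most abundant gene where none was called. Beyond that rule, more than 6 of the other members are given with their levels. All members that did not pass the test are also given with their log2 fold change, so that none was picked. Rrp12 and Nhp2 were singled out after their values were seen. The members and lists were chosen with earlier results of these data known. Positions and exon lengths are from GENCODE M21 (mm10). Python 3.11.15 was used for all tables and plots.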

Additional observations from a re-analysis of the deposited data

Results flagged for a closer look

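No rule for outlying samples was applied to groups of 3 libraries, and the weight of single libraries is shown by the fits without them. The strand opposite to Rn45s, which enters the tests only in the fit to unstranded counts, carried fragments. It was at 104.5, 193 and 254 CPM in GSK-J4 replicates 1, 2 and 3 and at 394, 499.5 and 444 CPM under LPS + GSK-J4, with means of 184 ± 75.2 and 446 ± 52.9 CPM (SD, n = 3), so that all LPS + GSK-J4 libraries were above all GSK-J4 libraries. An exact 2-sided permutation test gave p = 0.1, the smallest that 3 against 3 allow. Per 100 fragments on the Rn45s strand, there were 0.0614, 0.111 and 0.0822 fragments under GSK-J4. Under LPS + GSK-J4 there were 0.0670, 0.0902 and 0.0764 (exact permutation p = 0.7). The groups overlapped in this proportion, and 3 libraries against 3 cannot show that it was equal. Over all genes, the opposite strand held 0.966 to 1.38% of the fragments of both strands, a larger share than for Rn45s. The source of the opposite-strand fragments was not tested.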

How the results depend on the processing

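The increase of Rn45s kept its direction in all 15 alternative fits (log2 fold change 0.88 to 1.74) and its call in 14. Leaving out single libraries gave 7 to 11 members that rose, 1 to 2 that fell, 0 to 3 past the study's thresholds, 5 to 13 further ribosome biogenesis genes that rose and 0 to 1 that fell, a log2 fold change of Rn45s of 1.24 to 1.74, and a difference in its share of 19.7 to 24.9 percentage points. With total counts alone, 4 members rose and 11 fell, and 1 further gene rose and 48 fell, beside 573 and 5019 of all 10133 genes. The members' median was -0.23, and 13 of the 37 members tested turned from a positive to a negative sign. Among these 13 were Npm1 (-0.49) and Nop14 (-0.56), which then passed the test, and Mybbp1a (-0.09), the only one of the 13 called with TMM. DESeq2 gave 8 members that rose, 1 that fell, 0 past the study's thresholds and 5 further genes that rose. It called 912 of the 10133 genes higher and 820 lower. Without a filter on low counts 0 members passed the study's thresholds and 1 further gene fell. At an adjusted p of at most 0.01, 7 members rose and 1 fell. Among uniquely mapped fragments, the share of Rn45s differed by 8.97 percentage points, since that total is larger. The cause of the other changes was not tested.

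With the replicate number as a block, 11 members rose and 3 fell, 0 passed the study's thresholds, and 22 further genes rose and 1 fell. Over all 10133 genes, 1751 rose and 1497 fell with the block, against 1386 and 1004 without it. The block also called Taf1c (-0.77, adjusted p = 0.0111). Deviations from the group means correlated between same-numbered libraries at r = -0.0102, 0.117 and 0.295 for numbers 1, 2 and 3. No source pairs the numbers, and they were not taken as pairs. The libraries numbered 3 also had the most unmapped fragments, 32.96% under GSK-J4 and 34.31% under LPS + GSK-J4, against 26.84 to 28.55% in the others. Whether they shared a step of preparation was not tested. Depth limits the low members, since Polr1b, Taf1a and Gar1 could not be tested.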
